A study of Rattus norvegicus with 11 samples.

Results

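The nuclear-encoded genes of the mitochondrial respiratory chain were compared between rats that had self-administered heroin and yoked rats given saline, in medial prefrontal cortex. Members were the non-control probes whose gene name began with Nduf (complex I), Uqcr (complex III), Cox4 to Cox8 (complex IV) or Atp5 (complex V, the ATP synthase). The rule found 77 probes with 67 gene names among 41012 non-control probes with 35561 names: 36 probes of complex I, 7 of complex III, 19 of complex IV and 15 of complex V. All animals were male rats, 4 months old by the sample records, that underwent 14 days of enforced abstinence and then an extinction session in the chamber, with no drug given, directly before the tissue was taken. The heroin self-administering group held 6 rats, which had earned intravenous heroin by licking a spout. The yoked saline group held 5 rats, which were handled alike but were infused with saline through yoking to a heroin rat; saline 1 was not analysed here. Heroin and the act of earning it differed together between the groups. Each rat gave 1 single-colour array. The tissue was a block of whole cortex medial to the forceps minor, in which fewer cells of a type and less RNA per cell cannot be told apart.

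The respiratory chain passes electrons from food-derived carriers to oxygen and uses the energy to pump protons across the inner mitochondrial membrane. Complex I takes electrons from NADH, complex III passes them from ubiquinol to cytochrome c, complex IV gives them to oxygen, and complex V lets protons flow back and makes ATP. Neurons draw most of their ATP from this chain, and the subunits measured here are those made from nuclear genes. The names were those of the array design. In current nomenclature Atp5a1 is Atp5f1a, Atp5b is Atp5f1b, Atp5i is Atp5me, Atp5h is Atp5pd, Cox8h is Cox8b and Atp5s is Dmac2l. Of the 67 names, 63 belonged to subunits of these complexes or to factors that assemble one of them. The other 4 were Cox4nb, now Emc8, a subunit of a membrane protein complex of the endoplasmic reticulum; Cox6c1, now listed as a pseudogene of Cox6c; Cox7a2l, which joins complexes III and IV into supercomplexes; and Cox6b, whose probe the array file described as uroplakin Ia.

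The probes were 60 nucleotides long, and those on which the results turned are given as the array files hold them, in build rn3. Ndufs1, Uqcrc1 and Atp5s are shown because they had the largest positive differences of complexes I, III and V among genes measured in every rat, Atp5b as the catalytic subunit of the ATP synthase, and Cox6b2 as the largest negative difference. The Ndufs1 probe lay at chr9:61958828-61958887 on the minus strand, the Uqcrc1 probe at chr8:113980899-113980958 on the plus strand, the Atp5s probe at chr6:91801890-91801949 on the plus strand, the Atp5b probe at chr7:1378451-1378510 on the plus strand and the Cox6b2 probe, which spanned an intron, between chr1:67888924-67889549 on the plus strand. Which exon each probe lay in was not analysed here.
Ndufs1: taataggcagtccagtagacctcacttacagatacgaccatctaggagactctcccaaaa
Uqcrc1: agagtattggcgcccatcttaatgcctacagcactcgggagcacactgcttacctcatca
Atp5s: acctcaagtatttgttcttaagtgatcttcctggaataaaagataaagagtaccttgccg
Atp5b: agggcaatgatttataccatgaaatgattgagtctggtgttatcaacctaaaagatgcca
Cox6b2: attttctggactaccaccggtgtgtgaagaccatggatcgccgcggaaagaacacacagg

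Cox8h had 3 probes, and they did not read the same strand. The first below, at chr1:201207352-201207411 on the minus strand, lay on the strand of the gene, and the second, at chr1:201207391-201207450, on the opposite strand; the 21 bases they share as reverse complements are in capitals. The probe on the strand of the gene was detected on all 11 arrays, while the second and another that shares 40 bases with it were detected on 9 arrays each and were not tested.
Cox8h, gene strand: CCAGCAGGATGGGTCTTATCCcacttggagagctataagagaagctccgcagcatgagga
Cox8h, opposite strand: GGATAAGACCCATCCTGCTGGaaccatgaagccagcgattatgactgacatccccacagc

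A further 8 member genes had a non-member probe on the array that matched part or all of their own probe as a reverse complement, over 20 to 60 bases. The longest match was that of Atp5g2, a c-ring subunit of the ATP synthase, whose 60 bases were reverse-complemented in full. The Atp5g2 probe had a mean signal of 227 array medians and its reverse complement one of 4.13. The opposite-strand partners of Ndufs3, Atp5h and Uqcrc2 had signals of 1.24, 1.98 and 1.63 array medians, where the member probes had 106, 148 and 126. On the same strand, the probes of Ndufa2 shared 38 bases with each other. The brighter Ndufa2 probe also shared 33 bases with a probe of another gene name, so the values of that Ndufa2 probe are uncertain. Between isoforms the probes shared no run longer than 7 bases (Atp5g1 and Atp5g2), and between Cox6c and its pseudogene Cox6c1 the longest run was 10 bases.

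On the arrays, 25555 probes were detected in all rats and tested, 73 of them members. The 4 members not tested were the 2 opposite-strand Cox8h probes, Cox6b, detected on 2 arrays, and a bright Ndufc2 probe with too few usable spots. Cox6a1, the brain and liver isoform of subunit VIa, was saturated on all 11 arrays, so no fold change is given for it, but its values stayed in the counts and medians of the members and of complex IV. Signal is given in multiples of each array's median probe (array medians), and changes are log2 differences of heroin minus saline with limma's standard error. The heroin 6 array correlated least with the others (median r = 0.968 over all probes), followed by saline 2 (0.977). Heroin 6 also had the lowest median intensity before scaling, 42.7 against 58.0 to 83.2 in the other rats. Arrays of the same replicate number were scanned together, and all heroin arrays sat at one position on the slides and all saline arrays at another, so position and group cannot be told apart.

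The first question was whether respiratory chain genes as a group were expressed differently after heroin. Under the scaling the methods describe, 68 of the 73 members (93.2%) had a higher mean in the heroin group, but so did 78.7% of all probes tested, and the median change of the members was 0.19 where that of all probes was 0.18. No member passed both thresholds of the study, a p under 0.02 with at least a 1.4-fold change, which 2.72% of all probes did. At a p under 0.05, 9 members (12.3%) were higher, beside 15.7% of all probes, and none was lower, beside 2.83%. That first count changed with single saline rats: it was 23 without saline 5, 3 without saline 3, and 4 without saline 2 or without saline 6. The whole array changed with the same rats, but was counted there at the stricter criterion. Over all probes 694 passed both thresholds, and 2352 without saline 5, 393 without saline 3, 343 without saline 2 and 530 without saline 6. The share of all probes at a p under 0.05 was not taken without these rats, so the member counts have no like value beside them. In the main fit no member reached an adjusted p under 0.05, as 0% of all probes did. The adjusted p of members ran from 0.263 to 0.926 (limma, Benjamini-Hochberg over all probes tested). After quantile normalization, which forces the same distribution on every array, the median change was -0.04 for members and 0.01 for all probes, and 23 members (31.5%) were higher, beside 53.2% of all probes. There, 0 members passed both thresholds (1.79% of all probes), 0 were higher at a p under 0.05 (4.03%) and 1 was lower (3.68%). The sign of the members' change thus depended on the scaling, while their median differed from that of all probes by 0.004 under the main scaling and -0.054 after quantile normalization. The SD of the change across members was 0.13 under the main scaling and 0.23 across all probes, but members were also brighter (median log2 signal 6.70 against 1.77). Ribosomal protein, proteasome and V-type ATPase probes had SDs of 0.10, 0.087 and 0.13.

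**Figure D1:**
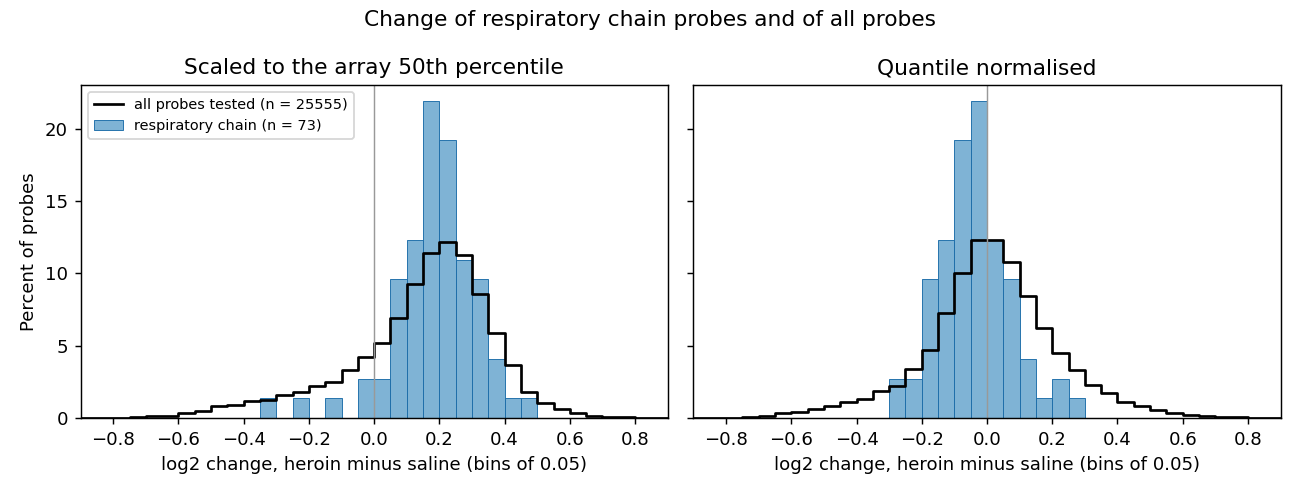
Percent of probes (y axis) by log2 change, heroin minus saline, in bins of 0.05 (x axis), for the 73 respiratory chain probes tested (bars) and all 25555 probes tested (black outline), under the main scaling (left) and after quantile normalization (right). The bars are centred near the outline's peak and are narrower than it in both panels, with medians of 0.19 and -0.04 for members and 0.18 and 0.01 for all probes.

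Complex by complex, the median change was 0.20 over 35 probes of complex I, 0.16 over 7 of complex III, 0.18 over 16 of complex IV and 0.19 over 15 of complex V. In complexes III and V every tested probe was higher in the heroin group, in complex I 33 of 35 and in complex IV 13 of 16. Over all probes tested, 78.7% were higher, with a median of 0.18. Of the ribosomal protein, proteasome and V-type ATPase probes, 98.2%, 97.8% and 100% were higher. Without the saturated probe and the names that are no subunit, 10 of 12 complex IV probes were higher, with a median of 0.20. Without saline 2 the median of complex III was 0.11. After quantile normalization the medians were -0.028, -0.065, -0.040 and -0.060. Scaling to the 75th percentile gave -0.014, -0.055, -0.025 and -0.032. The core subunits of complex I (8 probes) had a median of 0.22 and its accessory subunits (26 probes) one of 0.18. The F1 head and central stalk of complex V (5 probes) had 0.19 and its membrane part and peripheral stalk (10 probes) 0.17.

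Rat by rat, all 4 complexes were lowest in saline 2 and saline 6, as was the mean over all probes, while the highest rat differed: saline 5 for complex I, heroin 3 for complexes III and V and for all probes, and heroin 6 for complex IV. The mean deviation of the 73 members from each probe's mean over the rats was 0.09, 0.06, 0.12, 0.11, 0.00 and 0.11 in heroin 1 to 6 (0.08 ± 0.04, SD, n = 6). It was -0.25, -0.12, -0.03, 0.15 and -0.24 in saline 2 to 6 (-0.10 ± 0.17, SD, n = 5). The saline group therefore spanned more than the heroin group, with saline 5 above every heroin rat and saline 2 and saline 6 below all others. The same means over all probes tested were -0.03 to 0.13 in heroin rats and -0.19 to 0.07 in saline rats. The ratio of the 75th to the 50th percentile of signal, a property of the whole array, was lowest in saline 2 (4.47), saline 6 (4.63) and saline 3 (4.88), the 3 rats with the lowest member levels, and lay between 5.32 and 6.36 in the other rats. Saline 2 or saline 6 was the lowest rat for 50 of the 73 members (68.5%), beside 45.6% of all probes. After quantile normalization the members' means were -0.11 to 0.06 in heroin rats and -0.05 to 0.07 in saline rats, and the ranges of the groups overlapped.

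**Figure D2:**
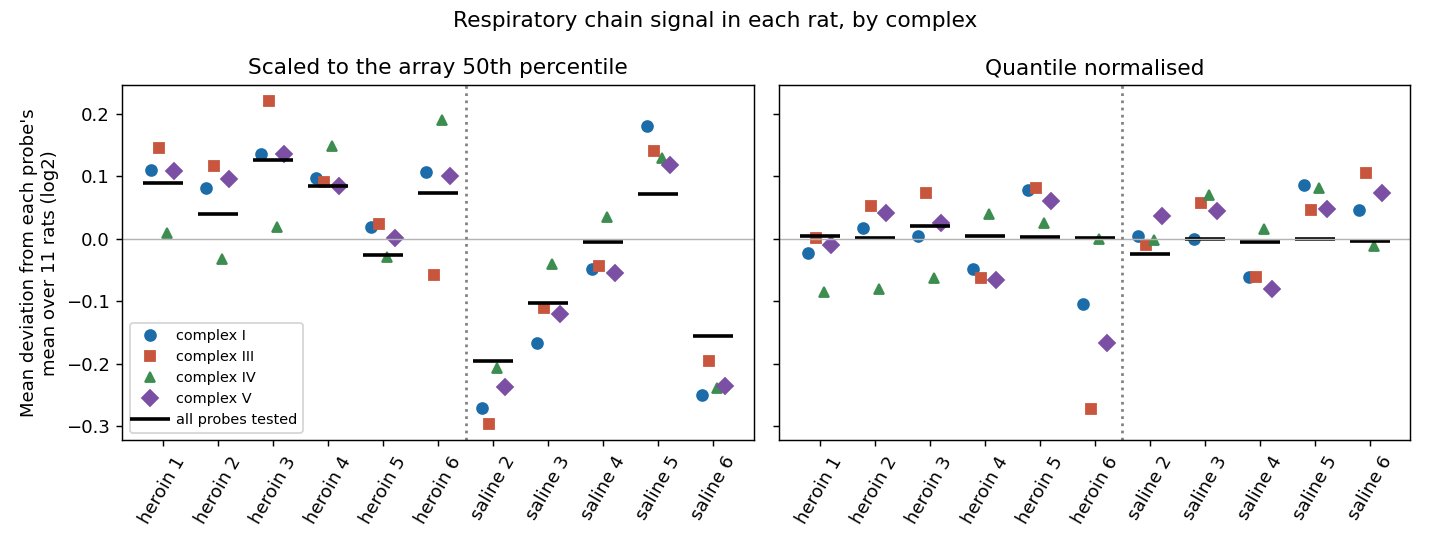
Mean deviation in log2 signal (y axis) of the tested probes of each complex from each probe's mean over the 11 rats, for every rat (x axis), under the main scaling (left) and after quantile normalization (right); black bars give the mean over all probes tested. Under the main scaling all 4 complexes are lowest in saline 2 and saline 6. Complex IV lies below the others in heroin 1 to 3 and heroin 5, and complex III in heroin 6. After quantile normalization complex III stands at -0.27 and complex V at -0.17 in heroin 6.

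Within a scan, the heroin rat minus the saline rat gave a mean member difference of 0.32 in the scan of replicates 2, 0.24 in that of replicates 3, 0.14 in that of replicates 4, -0.15 in that of replicates 5 and 0.34 in that of replicates 6. All probes gave 0.23, 0.23, 0.09, -0.10 and 0.23 in the same scans. The heroin rat was higher in 4 or 5 of the 5 scans for 48 of the 67 members measured in all of them (71.6%), beside 46.3% of all probes. With the scan, which is also the replicate number, as a block, the complex medians were 0.18, 0.16, 0.18 and 0.17. In that fit 5 of 70 members had an unadjusted p under 0.05, where 9 of 73 did without the block. Over all probes 800 of 25401 passed both thresholds with the block and 694 of 25555 without it. The share of all probes at a p under 0.05 was not taken in the blocked fit, so no change in the members is read from these counts. After quantile normalization the within-scan differences of members were 0.00, -0.03, 0.01, -0.02 and -0.16.

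Complex I was led by Ndufs1, the subunit that holds several of the iron-sulfur clusters of its electron-accepting arm. Its signal was 11.6, 11.9, 15.8, 10.9, 12.6 and 10.5 array medians in heroin 1 to 6 and 7.59, 7.62, 7.80, 13.6 and 9.25 in saline 2 to 6. All heroin rats lay above saline 2, 3, 4 and 6, and saline 5 lay among them. The change was 0.44 ± 0.17 (SE) (adjusted p = 0.263, exact permutation p = 0.039), and 0.20 after quantile normalization. Without saline 5 the change of Ndufs1 was 0.59 and passed both thresholds (adjusted p = 0.0603). In that fit 2352 of 25548 probes passed both, where 694 of 25555 did in the main fit. Ndufv1, which binds NADH, had 27.5 to 39.1 array medians in heroin rats and 23.7 to 29.0 in saline rats, a change of 0.28 ± 0.12 (exact permutation p = 0.013), and was higher in the heroin rat of all 5 scans. After quantile normalization the change of Ndufv1 was 0.04.

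Among the accessory subunits of complex I the 2 probes of Ndufa9 gave like values, 0.32 ± 0.13 (exact permutation p = 0.028) and 0.37 ± 0.14 (exact permutation p = 0.030). The brighter one read 61.3 to 71.1 array medians in heroin rats and 45.3 to 72.2 in saline rats, of which the highest was saline 5 and the others reached 52.7. Ndufa7 was 19.5 to 31.2 array medians in heroin rats and 15.0 to 21.4 in saline rats (0.35 ± 0.15, exact permutation p = 0.019). Its highest value was that of heroin 6, and without that rat the change was 0.25. Over the 26 accessory probes of complex I the smallest adjusted p was 0.263 (limma). Their changes after quantile normalization lay between -0.29 and 0.19. At the other end, the 2 probes of Ndufa2 had changes of -0.05 ± 0.15 and -0.02 ± 0.15. They were the lowest members of complex I under quantile normalization as well, at -0.29 and -0.27, the first being the 1 member lower at an unadjusted p under 0.05. The brighter Ndufa2 probe had 32.5, 35.7, 31.5, 31.5, 23.1 and 21.9 array medians in heroin 1 to 6 and 28.6, 30.7, 30.0, 33.6 and 26.7 in saline 2 to 6, so heroin 5 and heroin 6 were the lowest rats. Ndufa12 differed by 0.04 ± 0.14, and by -0.17 after quantile normalization.

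Ndufs4, a subunit needed for a stable complex I and named here after its values were seen, split the heroin group. Its signal was 6.09, 6.07, 5.99, 5.67, 5.92 and 2.17 array medians in heroin 1 to 6 and 3.13, 3.57, 3.91, 6.80 and 4.00 in saline 2 to 6. Heroin 1 to 5 lay between 5.67 and 6.09, while heroin 6 was the lowest of all rats and saline 5 the highest. The change was 0.29 ± 0.27 (exact permutation p = 0.392), and without heroin 6 it was 0.53 and passed both thresholds (adjusted p = 0.205). Without heroin 6, 788 of 25545 probes passed both.

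**Figure D3:**
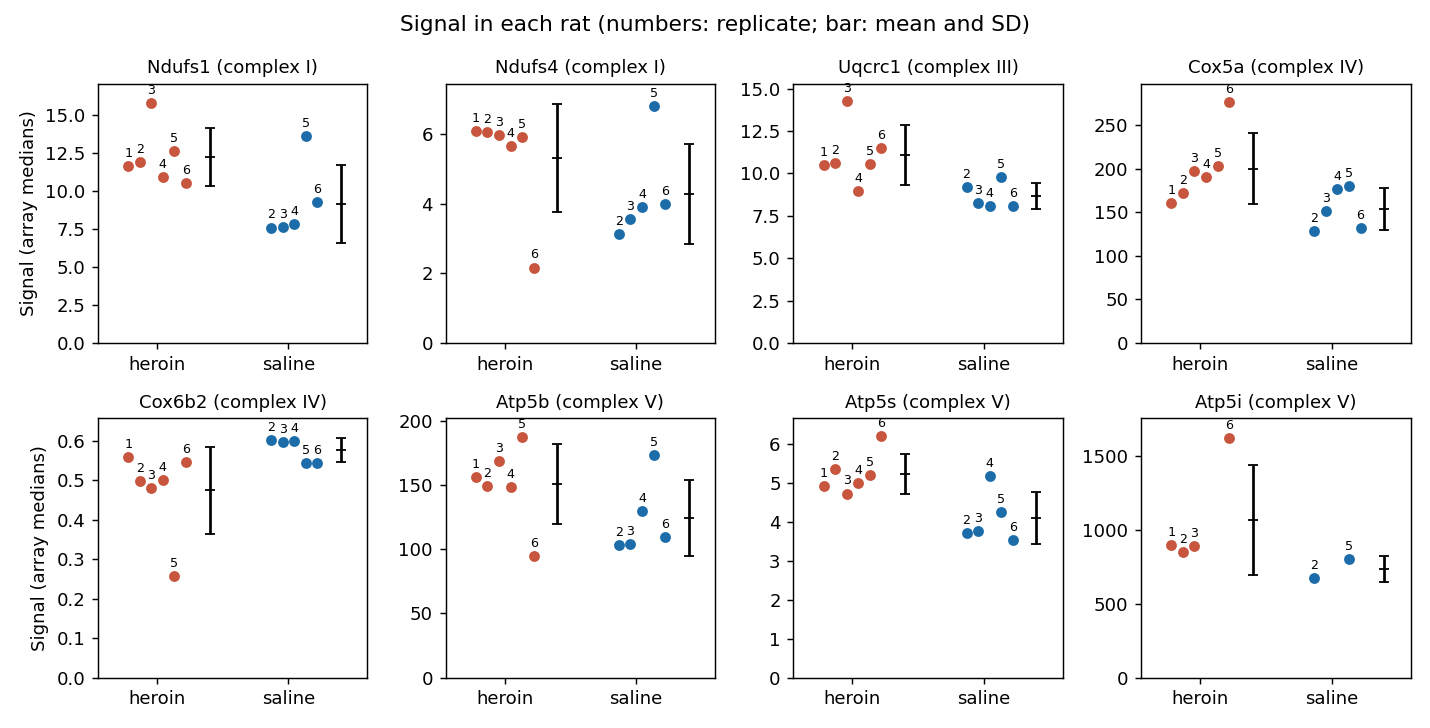
Signal in array medians (y axis, starting at 0) of 8 respiratory chain genes in every rat with a usable spot, heroin rats in red and saline rats in blue, each point marked with its replicate number; black bars give the mean and SD of the group. Saline 5 lies with the heroin rats for Ndufs1 and Ndufs4, heroin 6 is lowest for Ndufs4 and Atp5b and highest for Cox5a and Atp5i, and heroin 5 is lowest for Cox6b2.

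Complex III was led by Uqcrc1, a core protein of its matrix side. Uqcrc1 had 10.5, 10.6, 14.2, 8.98, 10.6 and 11.5 array medians in heroin 1 to 6 and 9.17, 8.26, 8.05, 9.79 and 8.10 in saline 2 to 6. Only heroin 4 lay below the highest saline rats, and the heroin rat was higher in all 5 scans. The change was 0.34 ± 0.13 (adjusted p = 0.263, exact permutation p = 0.015) and 0.10 after quantile normalization. Uqcrc2, the other core protein, was at 0.22 ± 0.16, Uqcrfs1, the Rieske iron-sulfur protein, at 0.14 ± 0.13, and Uqcrh, the hinge protein, at 0.11 ± 0.13, with exact permutation p values of 0.195 to 0.305. Uqcrc2 was at 0.11 without saline 2 and 0.32 without saline 5, and Uqcrh at 0.041 without saline 2 and 0.17 without saline 3. After quantile normalization Uqcrc2, Uqcrfs1 and Uqcrh were at -0.03, -0.11 and -0.13. The 3 probes of Uqcrb differed in the size of the change, at 0.07, 0.16 and 0.26.

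In complex IV, the subunits Cox5a and Cox5b were at 0.37 ± 0.16 (exact permutation p = 0.035) and 0.30 ± 0.16 (exact permutation p = 0.097). Cox5a had 161, 172, 197, 190, 204 and 276 array medians in heroin 1 to 6 and 129, 151, 177, 180 and 132 in saline 2 to 6. The heroin rat was higher in all 5 scans, and without heroin 6, the highest rat, the change of Cox5a was 0.27. The second probe of Cox5b gave 0.13 ± 0.12. After quantile normalization Cox5a was at 0.13 and the brighter Cox5b probe at 0.06. Cox4i1, the main regulatory subunit of this complex, had 89.1 to 117 array medians in heroin rats and 83.5 to 107 in saline rats (0.19 ± 0.12, exact permutation p = 0.058), close to the median of all probes.

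The isoform pairs of complex IV were compared by their changes and not by their levels, since probes differ in brightness. Cox4i2, the isoform known from lung and from the response to low oxygen, was at 0.06 ± 0.16 and Cox4i1 at 0.19 ± 0.12. Cox4i2 ranged from -0.032 without saline 6 to 0.14 without saline 5. Cox6a2, the heart and muscle isoform, was at 0.24 ± 0.15 (exact permutation p = 0.139), and at 0.36 without saline 5; its partner Cox6a1 was saturated. Cox8a and Cox8h were at 0.31 ± 0.18 and -0.12 ± 0.14, and Cox8h at -0.032 without saline 6. Cox8a rested on heroin 6, at 810 array medians where the other 5 heroin rats had 386 to 489, and was 0.16 without it. Cox7a2 was at 0.22 ± 0.14. Cox7a1, its muscle partner, and Cox6b1 were not analysed here, as no probe carried those names.

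The largest negative difference among the members was that of Cox6b2, the isoform of subunit VIb known from testis. Its signal was low, at 0.56, 0.50, 0.48, 0.50, 0.26 and 0.55 array medians in heroin 1 to 6 and 0.60, 0.60, 0.60, 0.55 and 0.55 in saline 2 to 6. Heroin 1 and heroin 6 overlapped the saline rats, and heroin 5 lay apart from all others. The change was -0.33 ± 0.18 (adjusted p = 0.301, exact permutation p = 0.039), and -0.16 without heroin 5. It was -0.54 under scaling to the 75th percentile, where it passed both thresholds (adjusted p = 0.439), and -0.07 with another background correction (normexp). Under the 75th percentile scaling 779 of 25555 probes passed both thresholds. Cox6c1, listed as a pseudogene, was at -0.22 ± 0.23, at -0.11 without heroin 6 and at -0.38 without heroin 5.

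In complex V, Atp5s, known as coupling factor B or subunit s, had the smallest limma p of all members. Its signal was 4.91, 5.34, 4.72, 4.98, 5.18 and 6.19 array medians in heroin 1 to 6 and 3.72, 3.77, 5.18, 4.25 and 3.54 in saline 2 to 6, so that saline 4 alone lay among the heroin rats. The change was 0.36 ± 0.13 (adjusted p = 0.263, exact permutation p = 0.013), a 1.28-fold difference, and 0.15 after quantile normalization. Atp5b and Atp5a1, the catalytic beta and the alpha subunit of the F1 head, were at 0.28 ± 0.18 (exact permutation p = 0.190) and 0.25 ± 0.15 (exact permutation p = 0.121), and at 0.04 and 0.0016 after quantile normalization. Atp5b was 156, 149, 169, 148, 188 and 94.7 array medians in heroin 1 to 6 and 103, 104, 130, 174 and 110 in saline 2 to 6, with heroin 6 below every other rat. Atp5d and Atp5h, a central stalk and a peripheral stalk subunit, had the smallest changes of the complex, 0.08 ± 0.13 and 0.07 ± 0.13, and were at -0.16 and -0.17 after quantile normalization. Atp5d was at 0.16 without heroin 5, and Atp5h at 0.0022 without saline 2 and 0.17 without saline 5.

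Groups did not overlap for 2 members, both of complex V and both with spots left out on some arrays, beside 1.66% of all probes with heroin above; none lay wholly below, beside 0.129%. Atp5f1, the peripheral stalk subunit b, was 452 to 559 array medians in 5 heroin rats and 365 to 449 in 4 saline rats (0.30 ± 0.14, exact permutation p = 0.0079). Atp5i, a membrane subunit, was 897, 853, 893 and 1625 in 4 heroin rats and 677 and 802 in 2 saline rats. Its change, the largest of all members, was 0.48 ± 0.28 (exact permutation p = 0.267), and 0.26 without heroin 6. After quantile normalization Atp5i alone had groups that did not overlap, beside 0.36% of all probes.

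**Figure D4:**
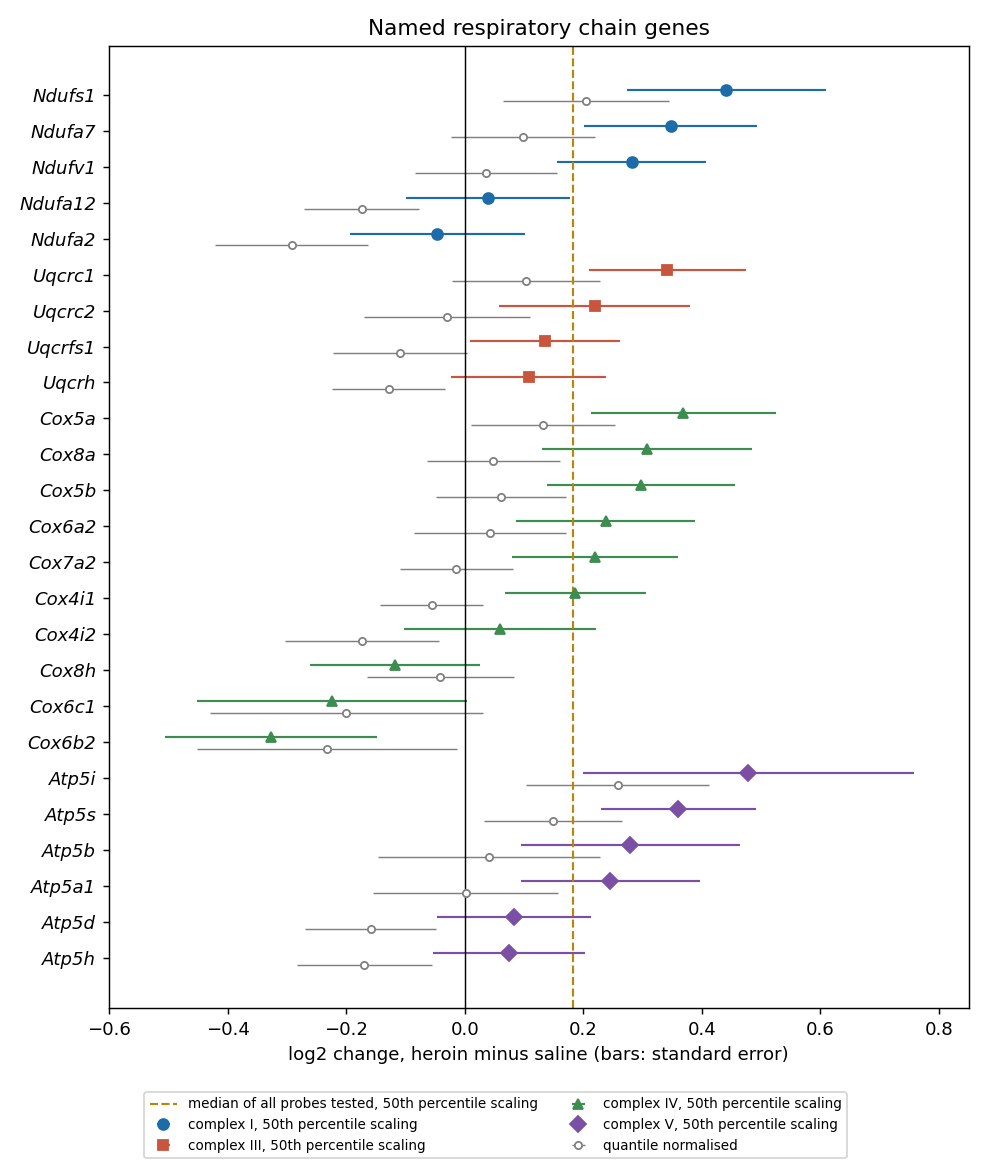
Log2 change, heroin minus saline (x axis), of 25 respiratory chain genes (y axis) ordered by complex, with limma's standard error as bars, under the main scaling (coloured) and after quantile normalization (open grey); the dashed line is the median of all probes tested, 0.18. Most coloured symbols lie around the dashed line, from -0.33 for Cox6b2 to 0.48 for Atp5i, and most grey ones around 0.

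The members' deviations were widest in heroin 6. After quantile normalization, 27.4% of the members lay more than 0.3 below their mean in heroin 6 and 12.3% more than 0.3 above it, with an SD across members of 0.35, where the other rats had 0.10 to 0.28, the highest of them in heroin 5. The lowest were Ndufs4 (-1.13), a probe of Ndufc2 (-1.02), Atp5b (-0.76) and Atp5c1 (-0.63), and the highest Ndufb3 (0.53), Ndufb2 (0.52) and Ndufa7 (0.48). Over all probes the SD in heroin 6 was 0.47, where the other rats had 0.20 to 0.37. The members' deviations were correlated with the GC content of the probes in several rats of both groups. Over 73 probes r was 0.59 in saline 2, 0.42 in saline 3, 0.26 in saline 6, -0.27 in saline 4 and -0.28 in saline 5. Over all probes tested r was 0.37, 0.22, 0.042, -0.017 and -0.24 in the same rats. Over the members r was -0.48 in heroin 5, -0.30 in heroin 4, between 0.093 and 0.18 in heroin 1 to 3, and -0.0049 in heroin 6. Over all probes it was -0.11 in heroin 5, -0.12 in heroin 4, between -0.12 and 0.0096 in heroin 1 to 3, and -0.10 in heroin 6. Without the Ndufc2 probe of lowest GC content (30%, a deviation of -1.27 in saline 2) r was 0.59 in saline 2 and -0.093 in heroin 6 over 72 probes. The correlations are across probes of 1 array, which share that array's labelling and are not independent. Across the same probes, the change between groups had r = -0.38 with GC content (-0.25 over all probes). Removing deviations by GC content gave complex medians of 0.035, -0.0014, 0.0068 and 0.037. The median over all probes was 0.013 there and 0.18 under the main scaling. That removal also re-centres each array on its tested probes, so these medians do not measure a part of GC content. Scaling to the 50th percentile of detected probes, which uses no GC content, gave -0.0069 over all probes. The part of GC content in these changes was not tested.

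**Figure D5:**
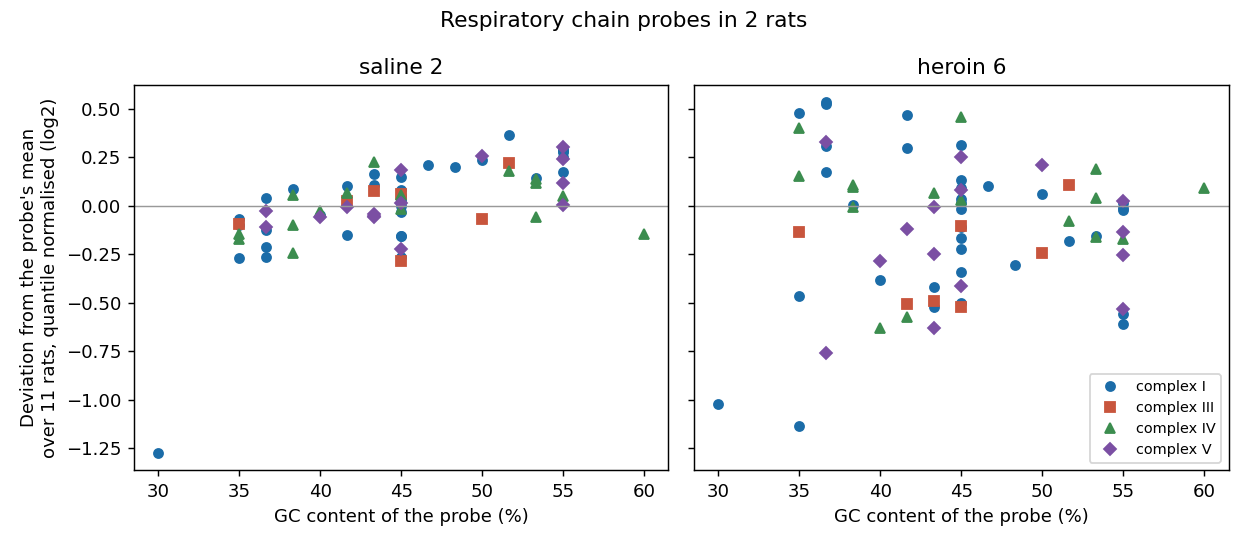
Deviation of each respiratory chain probe from its mean over the 11 rats in quantile-normalised log2 signal (y axis) against the probe's GC content in percent (x axis), in saline 2 (left) and heroin 6 (right), with 1 point per probe and complexes by colour and shape. The points rise with GC content in saline 2 (r = 0.59) and show no such slope in heroin 6 (r = -0.0049), where they spread from -1.13 to 0.53.

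Genes that work beside the chain had changes of similar size. The 4 subunits of complex II, which feeds electrons from succinate, had a median change of 0.26, led by Sdhc (0.37 ± 0.17, adjusted p = 0.269) and Sdha (0.29 ± 0.12, adjusted p = 0.263). The 15 probes of citric acid cycle enzymes had a median of 0.23, and 5 (33.3%) had an unadjusted p under 0.05, all higher, beside the 15.7% of all probes given above. Carriers and pores of the mitochondrial membranes (12 probes) had 0.23 and regulators of mitochondrial biogenesis (10 probes) 0.22, of which Tfam, the mitochondrial transcription factor, was at 0.32 ± 0.13 (adjusted p = 0.263) and Ppargc1a, the coactivator PGC-1 alpha, at -0.20 ± 0.22. After quantile normalization the 4 medians were 0.018, -0.0072, -0.0052 and 0.0042. Of the electron carriers, Cycs, the somatic cytochrome c, was at 0.39 ± 0.19 (adjusted p = 0.279) and Cyct, the testis cytochrome c, fell by 0.51 on the log2 scale (SE 0.17, adjusted p = 0.263) and passed both thresholds. Cyct had 0.63 ± 0.14 array medians in heroin rats and 0.88 ± 0.16 in saline rats (SD, n = 6 and 5).

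Cytosolic ribosomal protein genes (109 probes tested), proteasome subunits (45) and V-type proton ATPase subunits (20) had medians of 0.15, 0.24 and 0.22 under the main scaling, and -0.083, -0.0056 and 0.0013 after quantile normalization. The respiratory chain, at 0.19 and -0.04, lay between them under both. The differences between these groups were not tested. The summed signal of 6 neuron markers was 531 to 802 array medians in heroin rats and 505 to 686 in saline rats, and 5 interneuron markers gave 294 to 409 and 233 to 324, with all of these markers detected in every rat. All 5 interneuron markers were higher in the heroin group, as were all 6 neuron markers and 78.7% of all probes. Vip, an interneuron neuropeptide, passed both thresholds (0.49 ± 0.13, adjusted p = 0.263), as 2.72% of all probes did. Gad1, which makes GABA, was also higher at an unadjusted p under 0.05 (0.38 ± 0.16), as were 15.7% of all probes. After quantile normalization the interneuron median was -0.035. Vip and Gad1 were then at 0.25 and 0.17, and Gad2, Sst and Pvalb at -0.13, -0.035 and -0.081. The 5 striatum markers on the array, of which Drd2 was not detected in every rat, summed to 20.4 to 27.3 and 17.0 to 33.4 array medians, blood markers to 6.94 to 20.2 and 7.53 to 20.3, and muscle markers to 23.9 to 49.5 and 25.8 to 40.5. The 5 oligodendrocyte markers on the array summed to 82.8 to 289 and 87.6 to 271 array medians, and their median change was -0.01, or -0.25 after quantile normalization, with none of the 5 at an unadjusted p under 0.05. Of the astrocyte, microglia and endothelium markers tested, 5 of 6, 5 of 5 and 3 of 4 were higher in the heroin group. Their median changes were 0.17, 0.18 and 0.14, and -0.078, -0.065 and -0.11 after quantile normalization. The part of these cell types in the changes of the members was not tested.

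Promoters are shown because nuclear respiratory factor 1 (NRF1) and the ETS family factor GABP are known regulators of respiratory chain genes. RefSeq promoters of 300 bases (250 before and 50 after the start, assembly GRCr8) were found for 55 member subunit or assembly genes. The NRF1 core GCGCATGC, searched on both strands, was in 6 of them (10.9%) and in 2.66% of 27457 promoters of that length. The ETS core CCGGAAG was in 16 (29.1%) and in 9.22% of all. Genes with and without the NRF1 core had median changes of 0.18 (6 genes) and 0.20 (49 genes), and those with and without the ETS core 0.21 (16 genes) and 0.20 (39 genes). The 250 bases before the start are given for Uqcrc1, the leading gene of complex III (chr8:118467973-118468222, plus strand), and for Ndufa6, a member with both motifs (chr7:115750318-115750567, minus strand), 5′ to 3′ with matches on either strand in capitals. A match describes the letters and is not a site of binding.
Uqcrc1: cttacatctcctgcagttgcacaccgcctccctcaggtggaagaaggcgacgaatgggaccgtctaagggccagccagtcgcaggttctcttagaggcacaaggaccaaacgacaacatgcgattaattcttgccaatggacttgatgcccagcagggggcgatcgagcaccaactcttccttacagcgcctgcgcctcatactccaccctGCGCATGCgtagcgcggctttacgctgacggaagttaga
Ndufa6: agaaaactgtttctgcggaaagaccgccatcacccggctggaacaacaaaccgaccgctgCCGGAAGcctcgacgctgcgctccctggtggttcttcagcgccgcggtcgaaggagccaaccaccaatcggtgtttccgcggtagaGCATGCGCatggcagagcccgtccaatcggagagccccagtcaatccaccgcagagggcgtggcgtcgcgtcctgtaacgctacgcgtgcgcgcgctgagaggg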

How the data were processed

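RNA of 11 rats (6 heroin self-administering, 5 yoked saline) was measured on single-colour Agilent arrays of 45018 spots. The authors deposited, per the file headers, spot intensities from Feature Extraction 9.5.1.1 that were background-subtracted but not scaled between arrays, and a table of relative values, a ratio per probe and rat around 1 made by GeneSpring scaling, which served as an alternative. From the intensities, control and marked spots were left out, values under 5 were set to 5, spots of a probe were averaged on the log2 scale and each array's median over non-control probes was subtracted. A probe was tested if at least 0.5 of its spots were well above background on all 11 arrays and at least 2 arrays per group were usable, which was set after seeing the data and removed 32 probes. The groups were compared with limma 3.58.1 in R 4.3.3 (lmFit and eBayes), and p-values were adjusted by Benjamini-Hochberg across the 25555 probes; all tests were two-sided. For named genes an exact permutation p came from all 462 divisions of the rats, with a smallest value of 0.0022 where all arrays were usable. Fits were tested on simulated data. Precision was limited by the number of arrays.

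Members, gene lists, markers and tests were chosen with earlier results of these data known. The rule for named genes took those past both thresholds and the 2 largest rises and 2 largest falls of each complex. It also took a set list of subunits, isoform pairs, and genes whose probes disagreed in sign by more than 0.5. Each gene was given by its brightest tested probe. Ndufs4, Ndufa9, Uqcrb, Atp5f1 and the marker and pathway genes given by value were named after their values were seen. Each array is 1 rat, so p-values measure the spread between these rats. Same-numbered arrays shared a scan, and their deviations from the group means correlated at 0.38, -0.13, 0.35, 0.02 and -0.24 for numbers 2 to 6, so the numbers were not taken as pairs and the scan was tried as a block. For 1 gene that this rule selects, the result is not reported here.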

Additional observations from a re-analysis of the deposited data

Results flagged for a closer look

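In 10 of 59 groups tested among the named genes and complexes, 1 rat lay apart from the rest of its group by Dixon's criterion. Chance flags about 1 group in 20, but many of these genes were named for their large differences and share the same arrays. Over all probes tested the criterion was met in 9.02% of groups, with heroin 6 apart for 9.52% of probes, heroin 5 for 2.47% and saline 5 for 2.42%. Values are in array medians. Heroin 6 lay apart for 5 genes. It was highest for Atp5i (1625, the others 853 to 897), Cox8a (810, the others 386 to 489) and Ndufa7 (31.2, the others 19.5 to 21.9). It was lowest for Atp5b (94.7, the others 148 to 188) and Uqcrfs1 (85.6, the others 105 to 116). Heroin 5 was lowest for Atp5d (86.2, the others 109 to 124), Cox4i1 (89.1, the others 110 to 117), Uqcrh (408, the others 489 to 518) and Cox6b2 (0.258, the others 0.480 to 0.560). Saline 5 was highest for Atp5a1 (119, the others 85.2 to 93.0).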

How the results depend on the processing

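Alternatives differed most in how arrays were scaled. With scaling to the 75th percentile, the medians of complexes I, III, IV and V were -0.014, -0.055, -0.025 and -0.032, and the log2 change reversed for Atp5d (-0.13), Atp5h (-0.14), Cox4i1 (-0.031), Cox4i2 (-0.16), Ndufa12 (-0.16), Uqcrfs1 (-0.083) and Uqcrh (-0.11). With scaling to the 50th percentile of detected probes, the medians of complexes I, III, IV and V were 0.013, -0.028, 0.00050 and -0.0043, and the log2 change reversed for Atp5d (-0.11), Atp5h (-0.12), Cox4i1 (-0.0036), Cox4i2 (-0.13), Ndufa12 (-0.14), Uqcrfs1 (-0.055) and Uqcrh (-0.083). With quantile normalization, the medians of complexes I, III, IV and V were -0.028, -0.065, -0.040 and -0.060, and the log2 change reversed for Atp5d (-0.16), Atp5h (-0.17), Cox4i1 (-0.056), Cox4i2 (-0.17), Cox7a2 (-0.014), Ndufa12 (-0.17), Uqcrc2 (-0.030), Uqcrfs1 (-0.11) and Uqcrh (-0.13). With removal of deviations by probe GC content, the medians of complexes I, III, IV and V were 0.035, -0.0014, 0.0068 and 0.037, and the log2 change reversed for Atp5d (-0.032), Atp5h (-0.11), Cox4i2 (-0.056), Cox7a2 (-0.045), Ndufa12 (-0.11), Uqcrfs1 (-0.014) and Uqcrh (-0.0032). With quantile normalization with the replicate block, the medians of complexes I, III, IV and V were -0.035, -0.061, -0.032 and -0.073, and the log2 change reversed for Atp5a1 (-0.017), Atp5d (-0.18), Atp5h (-0.18), Cox4i1 (-0.063), Cox4i2 (-0.16), Cox8h (0.022), Ndufa12 (-0.20), Uqcrc2 (-0.053), Uqcrfs1 (-0.13) and Uqcrh (-0.14). Ndufa2 reversed with array weights (0.10), and Ndufa12 with marked spots kept (-0.0057), normexp (-0.039) and the replicate or slide block (-0.0024 in both). Leaving out 1 rat at a time gave complex medians of 0.16 to 0.27 (complex I), 0.11 to 0.21 (complex III), 0.12 to 0.22 (complex IV) and 0.13 to 0.23 (complex V), and Cox4i2 -0.032 to 0.14, Ndufa2 -0.11 to 0.034 and Ndufa12 -0.055 to 0.13. The number of members past both thresholds was 1 under either percentile scaling (Cox6b2), 2 with array weights (Ndufs1 and Ndufs4), 0 to 1 when 1 rat was left out (Ndufs4 without heroin 6, Ndufs1 without saline 5) and 0 under every other alternative run. At an adjusted p under 0.05 it was 20 with array weights and 0 otherwise. The replicate block, which is also the scan, left 0 members past both thresholds. With it 5 of 70 members had an unadjusted p under 0.05, where the unblocked fit had 9 of 73. That count was 39 with array weights, 16 with normexp, 1 under either percentile scaling, quantile normalization or GC removal, and 3 to 23 when 1 rat was left out. Of these fits the share of all probes at that p was taken for quantile normalization only, so the other counts are no result about the members. Over all probes, 694 passed both thresholds, of which 65.9% were higher in heroin. The count was 126 with normexp, 457 with quantile normalization, 308 with the methods' test for unequal variances, 1067 with detection in 1 group, 1560 with no detection filter, 2380 with array weights (7862 at an adjusted p under 0.05), 343 without saline 2, 393 without saline 3 and 2352 without saline 5. The share higher was 4.24% at the 75th percentile, 6.22% at the 50th percentile of detected probes, 6.19% after GC removal, 47.7% after quantile normalization and 96.8% with normexp. The quantile fit with the replicate block and the complex medians without non-subunit names were added after seeing the data. The causes of these differences were not tested.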
